A study of Mus musculus with 6 samples.

Results

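The CXC chemokines described here are Cxcl1, Cxcl2, Cxcl3, Cxcl9, Cxcl10, Cxcl11, Cxcl14 and Cxcl16. They were found as the rows of the deposited count table whose Ensembl gene IDs carry these symbols, and they make up 8 of the 54446 genes in the table. All 8 had at least 10 counts in 1 or more libraries and entered the fit across the libraries. Cxcl1, Cxcl2 and Cxcl3 lie together on chromosome 5 of GRCm38 (90786103 to 90905938, plus strand), and Cxcl9, Cxcl10 and Cxcl11 form a second group on the same chromosome (92321347 to 92365485, minus strand). Cxcl14 lies on chromosome 13 (56288643 to 56296551, minus strand) and Cxcl16 on chromosome 11 (70453983 to 70459984, minus strand).

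Chemokines are small secreted proteins that steer the movement of leukocytes by binding G protein-coupled receptors. Cxcl1, Cxcl2 and Cxcl3 bind Cxcr2 and draw neutrophils, and macrophages make them when TLR4 recognizes LPS and NF-kB enters the nucleus. Cxcl9, Cxcl10 and Cxcl11 bind Cxcr3 on activated T cells and NK cells and are classical targets of interferons. Cxcl16 is made as a transmembrane protein, binds Cxcr6, and is released from the cell surface by the protease Adam10, whereas Cxcl14 is a chemokine of resting tissues.

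mRNA was sequenced from bone marrow-derived macrophages (BMDMs) of male BALB/c mice aged 6 to 8 weeks, whose marrow had been cultured for 7 days with 20% L929-conditioned medium. Cells were left without polarization (M0), or were polarized for 24 h with IFN-γ (20 ng/mL) plus LPS (50 ng/mL) to M1, or with IL4 (20 ng/mL) to M2. Each state was sequenced with DMSO (control) and with regorafenib (1 µM, from 1 h before the polarizing cytokines), a multikinase inhibitor. The exposure of the M0 cells to the drug is not given in the sources used here. Each of the 6 conditions was 1 library of 25359309 to 34898342 counts, so no difference between 2 libraries has a replicate check, and the 95% intervals below cover counting error only. Levels are given in CPM, the counts per library size after TMM scaling. In bulk RNA, fewer cells that make a transcript and less of it per cell cannot be told apart.

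The libraries carried the markers of their labels. All 8 macrophage markers had at least 10 counts in every library, the summed level of 6 M1 markers was 15334 and 20234 CPM in the M1 libraries against 45.5 to 108 CPM elsewhere, and that of 6 M2 markers was 700 and 1321 CPM in the M2 libraries against 7.3 to 34.6 CPM elsewhere. All 5 T and NK cell markers were at 0 in every library, 4 B cell markers summed to at most 0.107 CPM, and 4 megakaryocyte and platelet markers to at most 1.39 CPM. The 7 neutrophil markers summed to 84.7 to 158 CPM, of which Mpo made 80.7 to 155 CPM, and Ly6g was at 0 in every library. Of the 3 tested, S100a8 and Camp rose in M1 against M0 along with the chemokines. S100a8 had 123 and 91 counts in M0 control and regorafenib against 1804 and 489 in M1 (log2 fold change 3.61, edgeR adjusted p = 0.00217), and Camp had 0 and 1 against 108 and 91 (edgeR adjusted p = 0.00237). The 5 dendritic cell markers, including Ccr7, summed to 32 and 38.8 CPM in M1 against 0.273 to 2.5 CPM elsewhere. The 6 fibroblast markers summed, in control and with regorafenib, to 3.19 and 10.2 CPM in M0, 9.1 and 6.85 CPM in M1, and 3.56 and 5.76 CPM in M2. For 4 endothelial markers these sums were 38.3 and 18.2 CPM in M0, 27.3 and 37.6 CPM in M1, and 26.6 and 10.2 CPM in M2. Of 4 fibroblast and 3 endothelial markers tested, 1 each rose in M1 against M0, Dcn (log2 fold change 3.71, edgeR adjusted p = 0.00848) and Pecam1 (6.50, edgeR adjusted p = 0.000729). Of all genes, 18.5% passed as higher in this contrast. The part of these other markers in the results below was not tested.

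Of the 8 genes, 6 have an entry in the RefSeq promoter table (GRCm38.p6), from which the 250 bases before the start site were searched on both strands. The motifs searched were an NF-kB motif (GGGNNTTTCC), an interferon-stimulated response element (ISRE, GAAANNGAAA) and a gamma-activated site (GAS, TTCNNNGAA). Sites that depart from these letters were not sought, so a promoter without a match can still hold a related site. Of all 32817 promoters, 1.41% held the NF-kB motif, 2.97% the ISRE and 7.01% the GAS. The promoters of the neighbours Cxcl1, Cxcl2 and Cxcl3 are shown because all 3 held the NF-kB motif (in capitals), Cxcl1 and Cxcl2 at 2 positions and Cxcl3 at 1, and because these genes had the highest levels in M1. All of these matches lay 62 to 97 bases before the start, and the first of Cxcl1 was on the minus strand.

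Cxcl1 (chr5:90890995-90891244, plus strand): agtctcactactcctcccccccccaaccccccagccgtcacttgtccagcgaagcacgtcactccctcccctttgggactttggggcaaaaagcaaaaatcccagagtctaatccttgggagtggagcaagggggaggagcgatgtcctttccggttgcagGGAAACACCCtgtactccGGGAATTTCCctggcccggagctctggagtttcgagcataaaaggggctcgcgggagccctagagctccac
Cxcl2 (chr5:90903649-90903898, plus strand): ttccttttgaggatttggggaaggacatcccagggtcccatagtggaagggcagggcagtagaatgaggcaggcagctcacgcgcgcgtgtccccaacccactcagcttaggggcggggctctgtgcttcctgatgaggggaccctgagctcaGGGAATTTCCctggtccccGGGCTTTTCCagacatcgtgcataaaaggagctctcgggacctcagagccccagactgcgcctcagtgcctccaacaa
Cxcl3 (chr5:90785851-90786100, plus strand): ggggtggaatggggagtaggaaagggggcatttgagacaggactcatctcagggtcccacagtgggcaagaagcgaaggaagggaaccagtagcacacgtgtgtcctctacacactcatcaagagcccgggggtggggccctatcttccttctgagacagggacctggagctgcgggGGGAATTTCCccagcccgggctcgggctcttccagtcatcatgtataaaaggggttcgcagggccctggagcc

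The sequence GGGAATTTCC occurred in all 3 promoters, at 71 to 62 bases before the start in Cxcl1, 97 to 88 in Cxcl2 and 73 to 64 in Cxcl3. These positions are counted from the RefSeq start. The Cxcl2 window ends at 90903898, past the start of the Gencode gene at 90903871, from which its sites would lie closer. The promoters of Cxcl10 and Cxcl14 each held an ISRE (capitals), at 213 to 204 and 172 to 163 bases before the start, and that of Cxcl14 also held a GAS (the first stretch of capitals). They are shown because the 2 genes went opposite ways in M1, as described below. The Cxcl9 promoter held none of the 3 motifs in this window.

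Cxcl10 (chr5:92348890-92349139, minus strand): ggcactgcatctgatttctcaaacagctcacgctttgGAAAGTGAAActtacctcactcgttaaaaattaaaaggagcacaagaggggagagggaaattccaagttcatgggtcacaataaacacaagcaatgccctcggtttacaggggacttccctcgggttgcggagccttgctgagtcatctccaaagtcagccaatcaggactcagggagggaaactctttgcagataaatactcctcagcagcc
Cxcl14 (chr13:56296552-56296801, minus strand): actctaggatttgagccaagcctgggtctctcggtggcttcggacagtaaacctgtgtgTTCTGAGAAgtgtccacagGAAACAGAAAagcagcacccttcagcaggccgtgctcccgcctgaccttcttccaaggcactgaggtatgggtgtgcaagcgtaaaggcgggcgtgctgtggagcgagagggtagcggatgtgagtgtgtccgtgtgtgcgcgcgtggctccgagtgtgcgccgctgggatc

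Polarization to M1 was accompanied by higher mRNA of 7 of the 8 chemokines and lower mRNA of Cxcl14. In edgeR's quasi-likelihood fit of state and treatment over the 6 libraries, all 8 genes passed an adjusted p of 0.05 between M1 and M0 (Benjamini-Hochberg over 14110 genes), 7 higher and 1 lower. The background was large, since 36.7% of all genes passed this contrast, 18.5% higher and 18.2% lower. The median log2 fold change of the 8 genes was 8.47, and that of all genes was -0.01. The fit has 2 libraries per state, 1 with and 1 without the drug, so its 2 residual degrees of freedom measure how far the 2 treatments differ in their response to polarization and not the spread of replicate cultures.

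The 3 Cxcr2 ligands went from a low level to the top of the chemokine range. Cxcl1, a neutrophil attractant, had 2.67 and 1.52 CPM in the M0 control and regorafenib libraries, 2148 and 2254 CPM in M1, and 0.740 and 0.536 CPM in M2. Its M1 levels were 804-fold the M0 level in the control pair (log2 ratio 9.65, 95% interval 9.34 to 9.98), and it rose across treatments by 10.14 on the log2 scale (edgeR adjusted p = 0.000223). Cxcl2, the most abundant of the 8 in M1 by CPM and per kilobase, had 12.5 and 3.79 CPM in M0, 5309 and 7093 CPM in M1, and 1.92 and 2.18 CPM in M2. The 137159 and 170947 counts of Cxcl2 in M1 stood against 383 and 125 in M0, and the edgeR fold change was 9.75 on the log2 scale (adjusted p = 0.000792). Cxcl3 had 46563 and 40928 counts in M1, against 11 and 22 in M0 and 19 and 7 in M2. Its control ratio was 5033-fold, with a wide interval on the log2 scale (11.46 to 13.30) because of the 11 counts in M0, and its edgeR fold change was 11.77 (adjusted p = 0.000225).

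Among the Cxcr3 ligands, Cxcl9 was close to a switch from no counts, whereas Cxcl10 was already present in M0. Cxcl9 had 15565 and 16548 counts in M1, against 0 and 5 in M0 and 4 and 0 in M2. With the M0 control library set to the floor of 3 counts used for a library at 0, the M1 control library was at least 6168-fold higher, and with regorafenib the ratio was 4527-fold (log2 12.14, interval 10.92 to 13.77; edgeR adjusted p = 0.00039 across treatments). Cxcl10, the interferon-inducible chemokine once named IP-10, had 15.2 and 2 CPM in M0, 142 and 188 CPM in M1, and 1.31 and 0.536 CPM in M2. It was 9.33-fold higher in M1 than in M0 in control (log2 ratio 3.22, 3.08 to 3.36) and 93.7-fold higher with regorafenib (6.55, 6.20 to 6.92), and the 2 ratios differ mostly through the M0 libraries. Cxcl11 had 731 and 857 counts in M1, against 15 and 0 in M0 and 0 and 1 in M2. Its control ratio was 57.9-fold, and with regorafenib M1 was at least 391-fold higher than M0. The edgeR fold changes of Cxcl10 and Cxcl11 were 4.85 (adjusted p = 0.00739) and 7.19 (adjusted p = 0.00328) on the log2 scale.

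Cxcl16 and Cxcl14 changed least. Cxcl16, the transmembrane chemokine, whose exons partly overlap those of Zmynd15 on the other strand, had 97.7 and 173 CPM in M0, 572 and 648 CPM in M1, and 38.3 and 97.8 CPM in M2. The M1 libraries were above all others, by 5.85-fold over M0 in control (log2 ratio 2.55, 2.49 to 2.61) and 3.74-fold with regorafenib (1.90, 1.86 to 1.95), and it rose by 2.32 on the log2 scale in edgeR's fit (adjusted p = 0.00339). Cxcl14 went the other way, with 40.7 and 25.6 CPM in M0, 12.5 and 8.3 CPM in M1, and 29.4 and 22.6 CPM in M2. Both M1 libraries were below the other 4. It fell by 1.61 on the log2 scale in edgeR's fit (adjusted p = 0.00265), and the control and regorafenib pairs gave nearly the same ratio, -1.70 (-1.88 to -1.53) and -1.63 (-1.86 to -1.40).

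**Figure D1:**
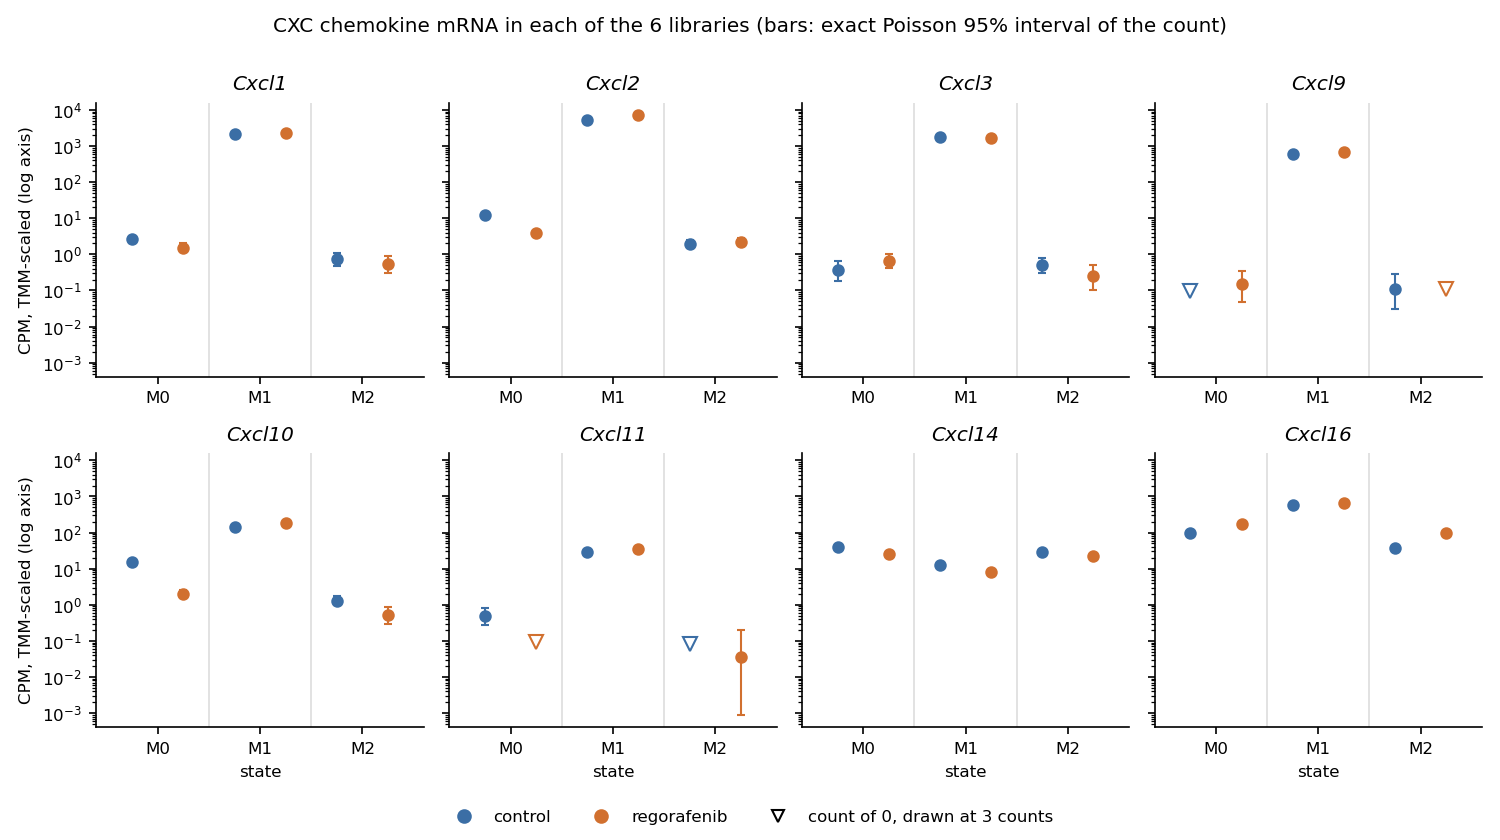
Level of each chemokine in the 6 libraries, as TMM-scaled CPM on a log axis, with 1 panel per gene, blue for control and orange for regorafenib, bars for the exact Poisson 95% interval of the count, and open triangles at 3 counts where a library had 0. The M1 libraries were highest in 7 panels (Cxcl2 at 5309 and 7093 CPM) and lowest in the panel of Cxcl14 (12.5 and 8.3 CPM).

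In each single pair of libraries, a gene was counted as past 2-fold where the ratio was at least 2-fold in either direction and 1 of the libraries had at least 10 counts. All 8 chemokines were past 2-fold between M1 and M0 in control, where 37.1% of the genes with enough counts were, and all 8 with regorafenib, where 37.9% were. Relative to control, the M1 to M0 ratio of Cxcl2 was larger with regorafenib (10.87 against 8.73 on the log2 scale), as were those of Cxcl1 (10.54 against 9.65), Cxcl10 (6.55 against 3.22) and Cxcl11 (at least 8.61 against 5.86). That of Cxcl16 was smaller (1.90 against 2.55), and the intervals of Cxcl3, Cxcl9 and Cxcl14 overlapped. These differences between the pairs of libraries were not tested, since a test of the interaction needs replicates.

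**Figure D2:**
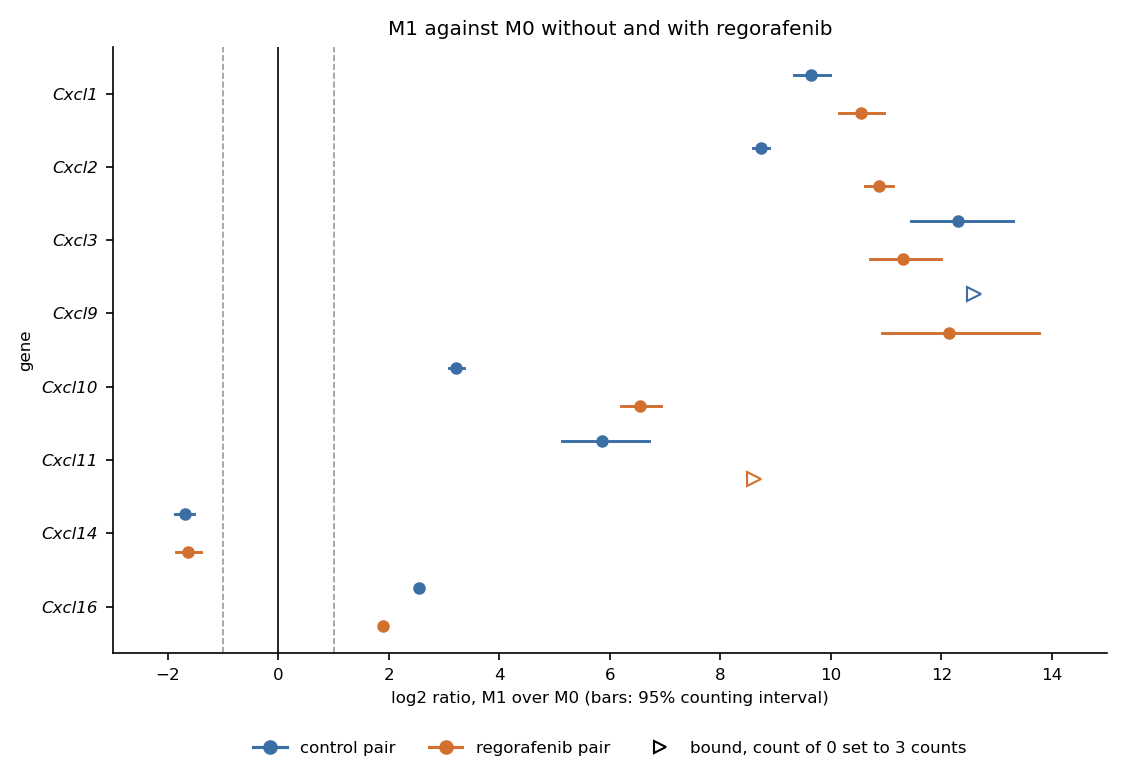
Log2 ratio of M1 over M0 for each gene, in the control pair (blue) and the regorafenib pair (orange), with 95% counting intervals as bars, dashed lines at 2-fold, and open triangles for a bound where the M0 library had 0 counts. Cxcl10 lay at 3.22 in control and 6.55 with regorafenib, Cxcl2 at 8.73 and 10.87, and Cxcl14 left of 0 in both (-1.70 and -1.63).

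In M2, the chemokines were lower than in M0 or not separated from it by the counts. In the control pair, Cxcl1, Cxcl2, Cxcl10, Cxcl11 and Cxcl16 were past 2-fold and all 5 were lower in M2, against a background of 12.3% of genes past 2-fold in either direction. Cxcl10 was 11.6-fold lower (log2 ratio -3.53, -3.99 to -3.10) and Cxcl2 6.5-fold lower (-2.70, -3.09 to -2.33). Cxcl1 was 3.61-fold lower (-1.85, -2.54 to -1.21), Cxcl16 2.55-fold lower (-1.35, -1.44 to -1.26), and Cxcl11, with 15 counts in M0 and 0 in M2, at least 5.94-fold lower. Cxcl14 was 1.38-fold lower, and the interval of Cxcl3 included no difference (0.54, -0.61 to 1.76). In the regorafenib pair, Cxcl1, Cxcl3 and Cxcl10 were past 2-fold and lower, against a background of 9.59%. With 1 CPM added to both libraries their log2 ratios were -0.71, -0.42 and -0.97, no longer past 2-fold. Cxcl2 and Cxcl16, which were past 2-fold in the control pair, had ratios of -0.80 (-1.26 to -0.35) and -0.82 (-0.89 to -0.76) with the drug.

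In edgeR's fit across treatments, 0 of the 8 passed the adjusted threshold between M2 and M0, as did 0.198% of all genes (28 of 14110). At an unadjusted p under 0.05 there were 1309 genes, 4 of them chemokines, which were Cxcl1 (log2 fold change -1.68, adjusted p = 0.137), Cxcl16 (-1.05, adjusted p = 0.314), Cxcl10 (-2.98, adjusted p = 0.314) and Cxcl2 (-1.89, adjusted p = 0.359). DESeq2 on the same terms called Cxcl1, Cxcl2 and Cxcl10 (adjusted p = 0.00116, 0.0105 and 0.000904), all lower in M2, among 416 genes called of 14110. edgeR on genes with at least 1 count called these 3 and Cxcl16 (adjusted p = 0.0435), among 408 genes called of 24938. Over all alternatives run the adjusted p was 0.00116 to 0.146 for Cxcl1, 0.0105 to 0.376 for Cxcl2, 0.000904 to 0.33 for Cxcl10 and 0.0435 to 0.325 for Cxcl16. The median log2 fold change of the 8 was -1.37 in edgeR's fit, beside -0.02 for all genes.

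With regorafenib, the interferon-inducible chemokines Cxcl10 and Cxcl11 and the neutrophil attractant Cxcl2 were lower in M0 and slightly higher in M1, Cxcl14 was lower and Cxcl16 higher in all 3 states. In M0, 3 of the 7 chemokines with at least 10 counts were past 2-fold, all lower, where 20.4% of all genes were past 2-fold in either direction. Cxcl10 went from 467 counts in control to 66 with the drug, which is 7.59-fold lower (log2 ratio -2.92, -3.32 to -2.55). Cxcl2 went from 383 to 125 counts, 3.29-fold lower (-1.72, -2.02 to -1.42), and Cxcl11 from 15 to 0, at least 5.37-fold lower. The level of Cxcl11 in M0 control was 0.488 CPM, and with 1 CPM added to both libraries its log2 ratio was -0.57, no longer past 2-fold. Cxcl1, with 82 and 50 counts, was 1.76-fold lower (-0.82, -1.35 to -0.29), and the interval of Cxcl3 included no difference (0.90, -0.21 to 2.09). The count of Cxcl9 in M0 (0 and 5) was too low to place a difference. All these M0 ratios rest on the same control library that serves the M1 and M2 comparisons in control.

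In M1, 0 of the 8 were past 2-fold between regorafenib and control, where 5.22% of genes were. Their 95% intervals were narrow because of the depth, so differences of small size stood above counting error. Cxcl2 was 1.34-fold higher with the drug (log2 ratio 0.42, 0.41 to 0.43), Cxcl10 1.32-fold (0.40, 0.34 to 0.47) and Cxcl11 1.26-fold (0.33, 0.19 to 0.47). Cxcl9 (0.19), Cxcl16 (0.18) and Cxcl1 (0.07) were higher by less, Cxcl3 was 1.06-fold lower (-0.09, -0.10 to -0.07), and Cxcl14 was 1.51-fold lower (-0.59, -0.85 to -0.33). Whether differences of this size exceed the spread between cultures cannot be read from 1 library per condition.

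In M2, 3 of the 6 chemokines with at least 10 counts were past 2-fold, beside 11.2% of all genes. Cxcl16 was 2.56-fold higher with regorafenib (1397 and 2737 counts, log2 ratio 1.35, 1.26 to 1.45). Cxcl10 was 2.45-fold lower on 48 and 15 counts (-1.29, -2.24 to -0.43), and Cxcl3 2.08-fold lower on 19 and 7 counts, with an interval that included no difference (-1.06, -2.55 to 0.26). The intervals of Cxcl1 (-0.46, -1.48 to 0.50) and Cxcl2 (0.19, -0.33 to 0.70) included no difference as well. With 1 CPM added to both libraries, the log2 ratios of Cxcl10 and Cxcl3 were -0.59 and -0.28, no longer past 2-fold.

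Across the 3 states, edgeR's test with state as a block called 0 of the 8 chemokines between regorafenib and control, as it called 0% of all genes (0 of 14110). At an unadjusted p under 0.05 there were 2 chemokines and 1637 genes, and DESeq2 called 0 chemokines and 301 genes after adjustment, with 3 chemokines and 1592 genes at an unadjusted p under 0.05. The 2 in edgeR's fit were those that went 1 way in every state. Cxcl14 had a log2 fold change of -0.53 (edgeR adjusted p = 0.373), lower in 3 of 3 states, with log2 ratios of -0.67, -0.59 and -0.38 in M0, M1 and M2. Cxcl16 had 0.80 (edgeR adjusted p = 0.385), higher in 3 of 3 states, with log2 ratios of 0.83, 0.18 and 1.35. The median log2 fold change of the 8 was -0.33, and that of all genes -0.01. The median of the 8 depended on the states included. With both M0 libraries left out it was -0.03, and without those of M2 it was -0.45. Without those of M1, where 6 of the 8 could be tested, it was -0.58.

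**Figure D3:**
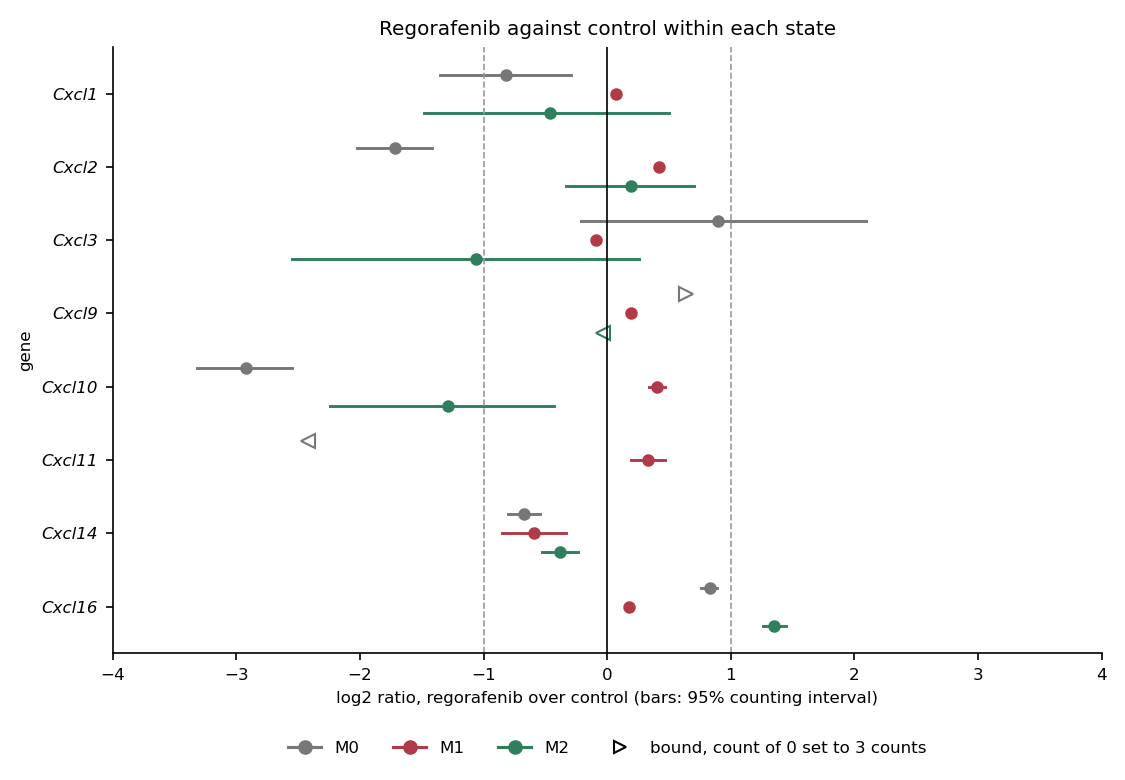
Log2 ratio of regorafenib over control for each gene in M0 (grey), M1 (red) and M2 (green), with 95% counting intervals as bars, dashed lines at 2-fold, and open triangles for a bound where a library had 0 counts (Cxcl11 in M2, with 0 and 1 counts, is not drawn). Cxcl10 lay at -2.92, 0.40 and -1.29, all points of Cxcl14 left of 0 and all points of Cxcl16 right of 0.

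The order of the 6 libraries differed between the genes. For Cxcl1, Cxcl2 and Cxcl10 it was M1 above the M0 control library, then M0 with regorafenib, then M2, and the counting intervals of neighbours overlapped between the 2 M2 libraries for Cxcl1 and Cxcl2 and between M0 with regorafenib and M2 control for Cxcl10. For Cxcl3 and Cxcl9 the 4 libraries outside M1 overlapped with their neighbours. Cxcl16 ran from the M1 libraries through M0 with regorafenib (173 CPM) to M2 with regorafenib and M0 control, which overlapped (97.8 and 97.7 CPM), and to M2 control (38.3 CPM). Cxcl14 was highest in M0 control (40.7 CPM), then in M2 control (29.4 CPM), then in M0 and M2 with regorafenib, which overlapped (25.6 and 22.6 CPM), and lowest in M1. For Cxcl11, M0 control (0.488 CPM) was apart from the other libraries outside M1, which had 0 or 1 counts.

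The make-up of the chemokine mRNA was compared between genes per kilobase of the longest coding transcript (953 bases for Cxcl1 to 3794 for Cxcl11). The 8 genes together held 0.0189% and 0.0233% of all counts in the M0 control and regorafenib libraries, 0.871% and 1.06% in M1, and 0.00756% and 0.0137% in M2. In the M1 control and regorafenib libraries, Cxcl1, Cxcl2 and Cxcl3 were 92.7% and 92.6% of the summed CPM per kilobase of the 8 genes, and the Cxcr3 ligands Cxcl9, Cxcl10 and Cxcl11 were 4.32% and 4.55%. Outside M1, Cxcl14 and Cxcl16 were most of it, with 73.4% and 93.1% in M0 and 90.1% and 95.3% in M2. With regorafenib the share of Cxcl16 was larger in M0 (45.4% in control, 76.4% with the drug) and in M2 (42.2% and 71.1%). The share of the Cxcr3 ligands in M0 was 14.3% in control and 1.82% with the drug.

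**Figure D4:**
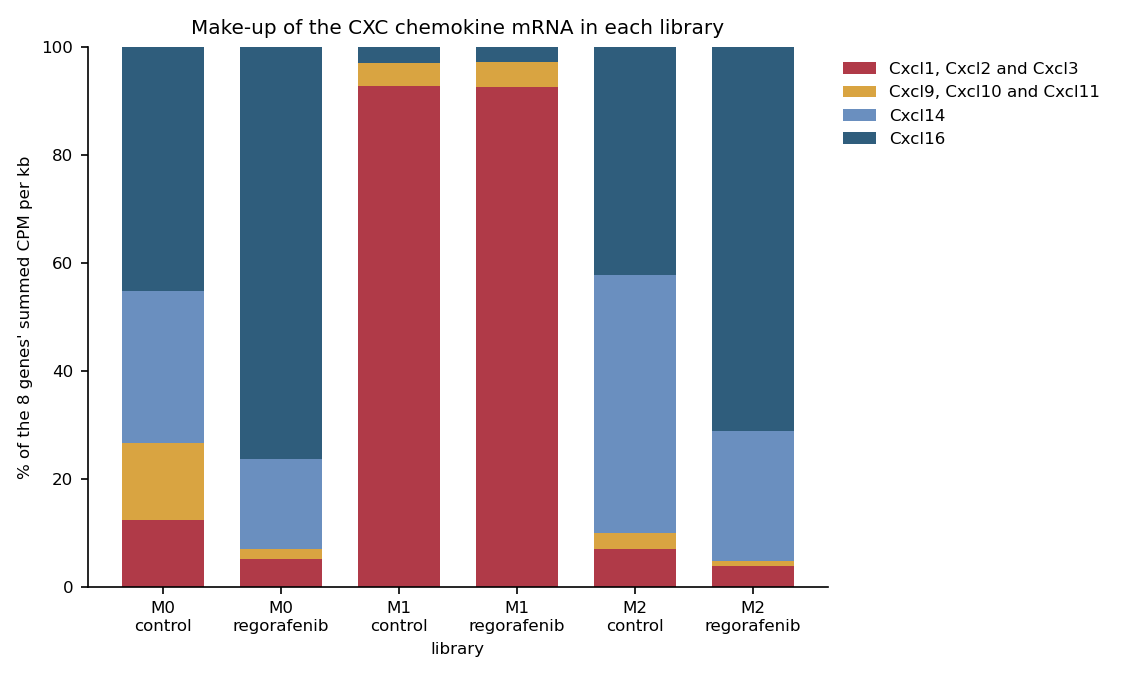
Share of each chemokine group in the summed CPM per kilobase of the 8 genes, as stacked bars from 0 to 100% for the 6 libraries. The Cxcr2 ligands (red) filled 92.7% and 92.6% of the M1 bars, and Cxcl16 (dark blue) was 45.4% of the M0 control bar and 76.4% of the M0 regorafenib bar.

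Most of the other CXC ligands and receptors were at or near 0 counts in these cells. The calls between M1 and M0 below stand beside 18.5% of all genes called higher and 18.2% called lower. Of 7 further CXC ligands, 3 could be tested between M1 and M0, and 2 rose, which were Cxcl5, another Cxcr2 ligand (log2 fold change 8.68, edgeR adjusted p = 0.000347), and Pf4, the platelet chemokine Cxcl4 (3.33, adjusted p = 0.00466). Cxcl5 had 873 counts in M1 control and 202 with regorafenib (log2 ratio -2.01, -2.24 to -1.79), while the log2 ratios of its relatives there were 0.07 for Cxcl1, 0.42 for Cxcl2 and -0.09 for Cxcl3. Pf4 was lower with the drug in all 3 states, its log2 ratio being -2.28 for M0, -0.33 for M1 and -0.89 for M2. Of 8 receptors, 2 could be tested and both fell in M1, Cxcr3 with a log2 fold change of -1.82 and Cxcr4 with -4.56 (edgeR adjusted p = 0.0171 and 0.00577). Cxcr6, the receptor of Cxcl16, had 0 counts in every library, and Cxcr2 had 0 to 18. Cxcr4, the Cxcl12 receptor, had 4690 counts in M0 control and 18703 with regorafenib, 388 and 194 in M1, then 4891 and 8474 in M2. Adam10, the protease that releases Cxcl16, fell by 0.98 on the log2 scale in M1 (edgeR adjusted p = 0.00616).

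The signalling genes upstream of the chemokines were also compared. Between M1 and M0, 18.5% of all genes passed edgeR's adjusted threshold as higher and 18.2% as lower. Of 13 genes of interferon signalling, 12 were tested between M1 and M0 and 9 rose, with a median log2 fold change of 1.12 for the list beside -0.01 for all genes. They included Socs1, the feedback inhibitor of Jak kinases (7.51), the kinase Jak2 (4.40) and the transcription factor Irf1 (3.78). Of 14 genes of TLR4 and NF-kB signalling, 11 rose and 1 fell, with a median of 1.41. Those that rose included the NF-kB inhibitors Nfkbia (3.64) and Tnfaip3 (4.12) and the NF-kB cofactor Nfkbiz (4.13), and the gene that fell was Tlr4 itself (-1.12). Of 5 genes that act on AU-rich mRNA, Zfp36 (1.56) and the RNase Zc3h12a (3.62) rose and Zfp36l2 (-2.38) fell. With regorafenib, 0 of the genes in these lists passed edgeR's adjusted threshold across states (lowest adjusted p = 0.302). Among genes with at least 100 counts, the ratios in M0 included Ifngr1 (1.08) and Stat2 (-0.96) for interferon signalling, and the largest were Relb (1.23), Cd14 (-1.04) and Nfkbiz (0.83) for TLR4 and NF-kB signalling. The largest for the genes that act on AU-rich mRNA was Zfp36l1 (1.87, from 324 to 1267 counts). In M1 the ratios of the signalling lists were smaller, Tyk2 at 0.66 and Nfkb2 at 0.59 being the largest of their lists. Zfp36 went from 165 to 97.5 CPM in M1 with the drug. In M2 the largest for interferon signalling were Irf1 (1.64, from 1091 to 2605 counts) and Ifngr1 (1.03). For TLR4 and NF-kB signalling they were Relb (1.80) and Nfkbiz (1.14). The ratio of Cxcl10 in this pair of libraries was -1.29. Interferon signalling was mixed there, as Socs1 went from 16.8 to 10.6 CPM and Irf9 from 61.5 to 43.6 CPM. The median ratio of that list was 0.17. Zfp36l1 went from 26.8 to 54.4 CPM in M2 with the drug.

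For each chemokine the genes with the most similar profile over the 6 libraries were sought, by the smallest root mean square difference of mean-centred log2(CPM + 1). Cxcl3 was closest to Il6, the inflammatory cytokine, with a difference of 0.09, and Cxcl1 to the iron-binding protein gene Lcn2, with 0.38. Cxcl2 was closest to Lcn2 (0.70) and to the guanylate-binding protein gene Gbp5 (0.73), less close than Cxcl2 and Cxcl1 to each other (0.40). Cxcl9 was closest to Cd38 (0.24) and Cxcl11 to Slamf1 (0.20). Cxcl10 was closest to Ifit1 (0.29) and Isg15 (0.35), both interferon-stimulated genes. Among the chemokines it was closest to Cxcl11 (0.92), with Cxcl9 at 2.07. Isg15 had 14512 and 13019 counts in M1, against 1245 and 173 in M0 and 272 and 146 in M2, and Ifit1 had 1413 and 373, 12952 and 10612, and 305 and 133, in control and regorafenib. The closest gene to Cxcl14 was Lonrf3 (0.05). These likenesses are descriptions over 6 libraries that share 3 states.

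The transcripts also differ in sequence that the choice of the genes did not use. The pentamer ATTTA, the core of the AU-rich elements that destabilize mRNA, was counted in the longest annotated 3' UTR of each gene in Gencode. Cxcl2 held 11 copies in 1494 bases, a number reached by 5.56% of 20683 genes, Cxcl1 7 copies in 592 bases (13.5% of genes) and Cxcl3 5 copies in 645 bases (22%). The 3 Cxcr2 ligands thus had 7.36 to 11.8 copies per kilobase, where the median gene had 1.28. Cxcl10 and Cxcl9 held 3 copies each, Cxcl16 held 2, Cxcl11 1 and Cxcl14 0.

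Reads of some of these genes can be shared with other genes. Of the distinct 100-base words in the annotated transcripts of Cxcl2, 3.05% also occurred in Cxcl3. On the opposite strand, 18.3% of the exon bases of Cxcl16 lie under exons of Zmynd15, 41.7% of those of Cxcl11 under exons of Gm2673, and 5.91% of those of Cxcl10 under exons of Art3. Which strand setting was used for the deposited counts is not stated, and without strand such reads cannot be told apart. Gm2673 had 0 counts in every library and Art3 had 0 to 3. These low counts do not show how reads in the shared bases were counted. Whether such reads are missing from the counts of Cxcl11, Cxcl16 or Cxcl10 was not tested. Zmynd15 had 998 and 782 counts in M1, against 119 and 352 in M0 and 43 and 138 in M2, and it was also the gene with the profile closest to Cxcl16 (0.18). Cxcl11 is annotated as a polymorphic pseudogene on the reference genome, which comes from another mouse strain (C57BL/6J) than these cells.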

How the data were processed

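mRNA of 6 conditions of BMDMs was sequenced, with 1 library each. The values the authors deposited are raw counts of reads for each gene, with no normalization. By their methods and processing notes, FastQC and cutadapt 2.4 served for quality control and trimming, and reads were mapped to GRCm38 and counted with STAR 2.7.2a on Gencode M19; the strand setting is not given in the sources used here. Library totals were 25359309 to 34898342 counts. Of 54446 gene IDs, 53229 were named from Gencode M21 by versioned ID and 1180 by ID without version, and 37 stayed unnamed.

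Counts were scaled with TMM (edgeR 4.0.16, R 4.3.3). Ratios between 2 libraries used 0.5 in place of a count of 0, with a 95% conditional exact binomial interval. A library at 0 was set to a floor of 3 counts to give a bound, and pairs with 3 or fewer counts in both libraries have no fold. NOISeq, the study's method, was not used since its noise is simulated. The fit of state and treatment over the 6 libraries used edgeR's quasi-likelihood test on 14110 genes kept by filterByExpr, with DESeq2 1.42.0 as an alternative. The scripts were tested on simulated data. Alternatives were other scalings, 1 CPM added, no count filter, a minimum of 1 count, and each state left out. Genes named are the chemokines, the 2 genes with the most similar profiles to each (at least 100 counts in a library), and genes of the lists that passed edgeR's threshold or otherwise had the 3 largest ratios among those with at least 100 counts; 1 such gene is not reported here. The chemokines and lists were chosen with earlier results of these data known. Python 3.11.15 (pandas 2.3.3, scipy 1.17.1) was used.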

Additional observations from a re-analysis of the deposited data

Results flagged for a closer look

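The log2 ratio of regorafenib to control had opposite signs in M0 and M1, with 95% counting intervals on opposite sides of 0, for 4 chemokines. These were Cxcl1 (-0.82 in M0 and 0.07 in M1), Cxcl2 (-1.72 and 0.42), Cxcl10 (-2.92 and 0.40, with -1.29 in M2) and Cxcl11 (-5.01 with the count of 0 replaced by 0.5, and 0.33). There was 1 library per condition, and the difference between the states was not tested. All 4 M0 ratios rest on the same pair of libraries.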

How the results depend on the processing

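The labels give no replicate numbers, and the fit of regorafenib across states pairs the 2 libraries of each state by its block. No log2 ratio of the 8 chemokines changed sign under DESeq2 size factors, total counts or 1 CPM added, among those with a fold. Scaling by total counts lowered every M1 to M0 ratio by 0.44 in control and 0.41 with regorafenib and moved the other comparisons by at most 0.09. Between regorafenib and control in M0, 3 chemokines were past 2-fold, 2 with 1 CPM added, when Cxcl11 went from -5.01 to -0.57, and 4 without the count filter. Between M2 and M0 in control these counts were 5, 4 and 6, with Cxcl11 going from -5.16 to -0.57. Between regorafenib and control in M2, 3 chemokines were past 2-fold, 1 with 1 CPM added and 5 without the count filter. Between M2 and M0 with regorafenib, 3 were past 2-fold, 0 with 1 CPM added and 5 without the filter. Between M2 and M0 across treatments, edgeR called 0 chemokines, 4 on genes with at least 1 count and DESeq2 3, and the genes called in all were 28, 408 and 416. Across states, regorafenib called 0 genes in edgeR's fit, 333 on genes with at least 1 count, 386 without the M1 libraries and 301 with DESeq2, and 0 chemokines in each of these. All 8 chemokines passed the threshold between M1 and M0 under the 3 alternatives run. With all annotated exon bases as length, an alternative chosen after seeing the data, Cxcl1, Cxcl2 and Cxcl3 were 90.1% and 90.5% of the M1 libraries' summed level. For Cxcl9 outside M1 (0 to 5 counts) and for Cxcl3 between regorafenib and control in M0 and M2, a difference was not detectable at this depth.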
